A study of Drosophila melanogaster with 36 samples.

Results

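A miRNA hairpin gives rise to 2 small RNAs, and the arm with fewer reads is called here the minor arm (also passenger strand, or star strand). Among the 310 fly miRNAs counted in Drosophila S2 cells, 139 hairpins had both a 5p and a 3p entry under the same name, after bantam and miR-9388 were set aside. The minor arm of each was the arm with the lower summed reads in total small RNA of wild-type (WT) cells, and it was kept if it averaged at least 10 reads in those libraries or in periodate-treated WT libraries. This left 32 minor arms of 32 hairpins. Of these, 27 also reached a mean of 50 reads. The member closest above the minimum was miR-1008-5p, with a mean of 11.0 reads, and the arms closest below it were miR-1002-3p with 8.67, miR-5-3p with 7.67 and miR-967-3p and miR-968-3p with 7.33 each. Arms of 30 hairpins had equal sums in the WT libraries and gave no minor arm.

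S2 cells are a cultured Drosophila line, and each of the 3 replicates of a group was a different clonal line. The knockout lines were made by transfection of plasmids for Cas9 and guide RNAs, puromycin selection and sorting of single cells. Total small RNA was sequenced untreated from WT, dora, hen1 and hen1/dora lines. In WT and dora lines, small RNAs were also sequenced after periodate oxidation and β-elimination, which spares RNAs with a methylated 3′ end, and after pulldown of Ago1 with a tagged fragment of human TNRC6B, a GW182 protein that binds Ago1. In hen1 and hen1/dora lines, FLAG-tagged Ago2 was expressed from a transfected plasmid and immunoprecipitated (Ago2-IP), so that this readout rests on introduced and not on endogenous Ago2. The 30 libraries form 10 groups of 3. Between 265759 and 671057 miRNA reads were counted per periodate-treated library, 344324 to 508914 per Ago2-IP library, 1515851 to 11522776 per total library and 5070235 to 10673874 per Ago1-IP library. In the first periodate-treated dora library, 66.3% of the reads fell on size markers and spike-ins, against 0.224% to 21.7% in the other libraries. The small-RNA tables hold no reads of the dora or Hen1 mRNA. The dora label was checked on miR-7-5p, a miRNA that the study selected as Dora-sensitive in these total libraries, whose level was 273, 288 and 294 RPM (reads scaled to 1000000 miRNA reads of the library) in WT lines and 3717, 4317 and 4381 RPM in dora lines.

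In flies, Dicer-1 cuts the hairpin into a duplex of both arms, and 1 arm is kept in an Argonaute protein while the other is usually lost. Most arms that become functional miRNAs load into Ago1, which works with GW182 to repress mRNAs, whereas Ago2 is the main carrier of siRNAs and also takes up a number of miRNA arms. A well-paired duplex centre favours Ago2, and the base at the 5′ end of an arm has a weaker part in the choice. The methyltransferase Hen1 acts on RNAs once they sit in fly Ago2 and leaves a 3′ end that other enzymes extend or shorten less readily. Dora, the fly homolog of ZSWIM8, is an adaptor of an E3 ubiquitin ligase that acts in target-directed miRNA degradation (TDD), in which an extensively paired target leads to loss of the Argonaute and of the miRNA in it.

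All 32 minor arms and their partner arms were found in the RefSeq annotation of the fly genome (Release 6), and the 32 minor arms had 32 different seeds (bases 2 to 8, the part that pairs with targets). Lengths ran from 21 to 26 nt, with a median of 22 nt for minor and for other arms. Of the hairpins, 21 lay in an intron of a protein-coding gene on the same strand, 9 overlapped an exon of a long noncoding RNA and 2 lay outside other annotated genes of that strand. The arms below carry the results that follow, with the seed in capitals. The first 5 were enriched with Ago2 in the tests described further on.
miR-33-3p: cAAUACAAcuucagugcaagcu
miR-282-3p: aCAUAGCCuauaagagguuagg
miR-998-5p: aCUGAAUUcucgugggucugca
miR-275-5p: cGCGCUAAucagugaccggggcu
miR-306-3p: gGGGGUCAcucugugccugugc
These are read from chr3L:19798025-19798046 (plus strand, an intron of SREBP), chr3L:3251081-3251102 (plus strand, the noncoding RNA CR43626), chr3R:21621977-21621998 (minus strand, an intron of the cell-cycle factor E2f1), chr2L:7425814-7425836 (plus strand, the noncoding RNA CR43857) and chr2L:16698455-16698476 (plus strand, an intron of the checkpoint kinase gene grp).

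The next arms went against that majority. The first pair was enriched with Ago1, and the last 3 were depleted from both Argonautes relative to total small RNA.
miR-9c-3p: uAAAGCUUuuauaccaaagcuc
miR-9b-3p: uAGAGCUUuauuaccaaaaacc
miR-79-5p: gCUUUGGCgcuuuagcuguauga
miR-34-3p: cAGCCACUaucuucacugccgcc
miR-279-5p: aGUGGGUGgggguccaguguuucaca
miR-9c-3p (chr2L:16697984-16698005), miR-9b-3p (chr2L:16698799-16698820) and miR-79-5p (chr2L:16698572-16698594) lie on the plus strand in the same grp intron as miR-306-3p. miR-34-3p (chr3R:10101003-10101025) and miR-279-5p (chr3R:29215606-29215631) lie on the plus strand within the noncoding RNAs CR43459 and CR31044.

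The last set holds some of the minor arms that changed in a comparison for loss of Dora or Hen1. The other arm of miR-190 is shown because its rise upon loss of Dora changes the order of the arms in Ago1-IP.
miR-283-3p: cGGAAUUUcaguugguaucga
miR-304-3p: cACUUUGCaauuggagauugcu
miR-12-3p: cAGUACUUaugucauacuacgc
miR-190-3p: cCCAGGAAucaaacauauuauu
miR-190-5p: aGAUAUGUuugauauucuugguug
The miR-283 (chrX:15508023-15508043), miR-304 (chrX:15509016-15509037) and miR-12 (chrX:15509521-15509542) minor arms lie on the plus strand in an intron of Gmap, a gene for a Golgi microtubule-associated protein. miR-190-3p (chr3L:8571863-8571884) and miR-190-5p (chr3L:8571822-8571845) lie on the plus strand in an intron of rhea, the talin gene.

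The minor arms were few in total small RNA of WT cells but took up a large part of periodate-treated small RNA. Together they made up 3.69% ± 0.169 (SD, n = 3) of miRNA reads in total WT libraries, 24.6% ± 2.06 in periodate-treated WT libraries and 0.985% ± 0.0296 in Ago1-IP libraries of WT lines. The members were selected on their reads in the WT total and periodate-treated libraries, so that these values and the WT values of the next 2 paragraphs are given as a description. The 9 members on chromosome arm 2R are described without their sequences. In lines that took no part in the choice, the share was 2.92% ± 0.347 in total and 25.2% ± 0.946 in periodate-treated libraries of dora lines, and 2.39% ± 0.269 in total and 20.2% ± 0.411 in Ago2-IP libraries of hen1 lines. RPM values describe shares of the miRNA pool, so that a higher share of an arm and a lower share of the rest cannot be told apart, nor can fewer cells that hold an arm and less of it per cell.

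A few members accounted for most of these reads. miR-33-3p was the most abundant minor arm, with 12914, 15552 and 12374 RPM in total small RNA of the 3 WT lines and 93158, 93162 and 107524 RPM after periodate treatment. In Ago1-IP its level was 804, 1020 and 868 RPM, so that the 3 library types did not overlap. miR-282-3p followed with 8352, 9014 and 9362 RPM in total, 61839, 71208 and 66824 RPM in periodate-treated and 3823, 3433 and 3659 RPM in Ago1-IP libraries, again with no overlap. miR-184-5p, the minor arm of an abundant fly miRNA, had 3712, 3283 and 4362 RPM in total, 33028, 56915 and 35620 RPM in periodate-treated and only 171, 309 and 221 RPM in Ago1-IP libraries. The next 5 by mean level in total WT libraries were miR-34-3p (2657 RPM), miR-8-5p (1804 RPM), miR-998-5p (1097 RPM), miR-308-5p (732 RPM) and miR-988-5p (663 RPM). Of these, miR-34-3p ran the other way after periodate treatment, at 466, 160.0 and 272 RPM in WT lines. miR-1008-5p had no reads in 8 of the 30 libraries, miR-2279-3p in 2 and miR-79-5p in 1.

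Because an Argonaute library may hold more of 1 hairpin as a whole, the arms were also compared within each hairpin. By the rule no minor arm exceeded its partner in summed reads of total WT libraries, and the median minor arm held 4.40% of its hairpin's reads there. In periodate-treated WT libraries the median was 7.43%, in Ago1-IP libraries of WT lines 0.507%, and in Ago2-IP libraries of hen1 lines 9.56%. miR-308-5p held 41.0%, 45.3% and 47.9% of the reads of its hairpin in total WT libraries, 99.2%, 99.7% and 99.8% after periodate treatment and 0.532%, 0.511% and 0.525% in Ago1-IP. Its 2 arms thus changed places between the library types in every WT line. The minor arm also outnumbered the other arm in every periodate-treated WT library for miR-7-3p (78.7%, 86.0% and 66.7%), miR-282-3p (95.5%, 96.4% and 95.7%), miR-998-5p (82.6%, 85.8% and 86.0%) and miR-307a-5p (78.9%, 100% and 92.9%). The last of these rests on 30, 15 and 39 reads.

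**Figure D1:**
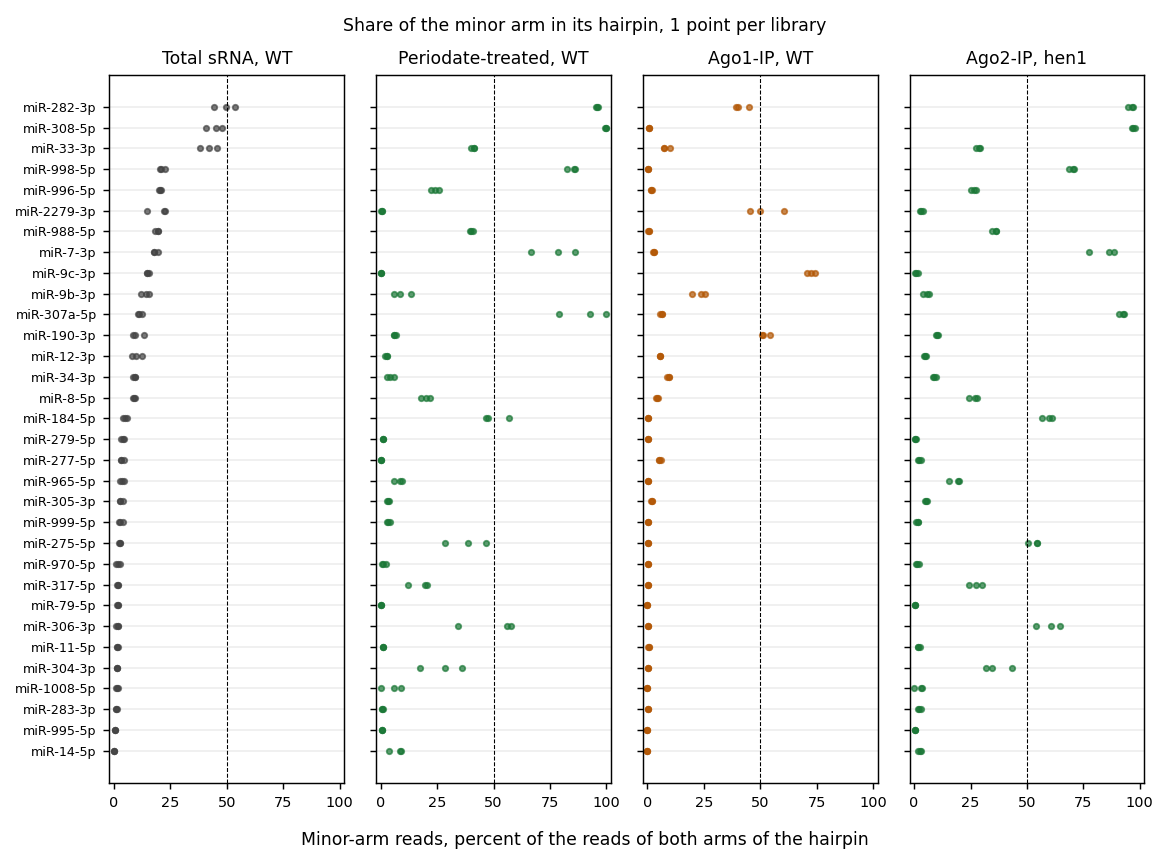
Reads of the minor arm as a percentage of the reads of both arms of its hairpin (x axis), for 32 hairpins ordered by their share in total WT libraries, in total small RNA, periodate-treated and Ago1-IP libraries of WT lines and in Ago2-IP libraries of hen1 lines. Points are the 3 libraries of each group and the dashed line marks an equal share: minor arms lie to the left of it in total small RNA, apart from miR-282-3p in 1 library (53.4%), while 5 lie to the right of it in every periodate-treated WT library and 8 in every Ago2-IP library.

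In Ago2-IP of hen1 lines, 8 minor arms outnumbered their partners in all 3 libraries. Besides the 5 named above these were miR-184-5p, miR-275-5p and miR-306-3p. miR-184-5p held 61.1%, 56.6% and 59.7% of its hairpin's reads in Ago2-IP, against 5.79%, 5.01% and 4.04% in total WT libraries. miR-306-3p held 64.8%, 54.0% and 60.6% in Ago2-IP against 1.01%, 1.55% and 1.73%, and miR-275-5p 54.4%, 50.5% and 54.3% against 2.16%, 2.56% and 2.46%. These 3 arms thus held under 6% of their hairpin's reads in every total WT library and were yet the more frequent arm with tagged Ago2. In Ago1-IP libraries of WT lines, 2 minor arms outnumbered their partners in all 3 libraries. miR-9c-3p held 72.3%, 70.7% and 74.1% of its hairpin's reads and miR-190-3p 54.2%, 50.9% and 51.1%. Both were below 50% in every Ago1-IP library of dora lines, in which their partners were higher, as given below. miR-2279-3p had a mean share of 52.0% ± 7.75 (SD) in Ago1-IP of WT lines, but its order varied between libraries. It had 123, 80 and 172 reads there, against 123, 52 and 206 reads of miR-2279-5p.

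To test the association with Ago2 on lines that had not chosen the members, periodate-treated libraries of dora lines were compared with total libraries of the same genotype. The paper describes the total WT and dora data as published earlier, so that library type and batch of preparation cannot be told apart here. Read counts were fitted with edgeR's quasi-likelihood test, scaled to miRNA reads, over 108 miRNAs with a mean above 5 RPM over both groups, and p-values were adjusted by the Benjamini-Hochberg method over all of them with a threshold of 0.05. Of 31 minor arms tested, 18 were higher and 7 lower after periodate treatment. Among all miRNAs tested, 82.4% passed the threshold, 43.5% as higher and 38.9% as lower. The median log2 fold change was 1.44 for the minor arms and 0.16 for all miRNAs. The other arms of the same hairpins had a median of -0.97, with 9 higher and 18 lower of 32. A number of these other arms were higher in total small RNA of dora than of WT lines (below), so that this median reflects sorting and genotype together. Only miR-1008-5p was too rare to be tested.

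The largest increase was that of miR-308-5p, an arm of an intronic hairpin in the ribosomal protein gene RpS23. It had 759.5, 682 and 269 RPM in total and 13587, 18022 and 19887 RPM in periodate-treated libraries of dora lines, a log2 fold change of 4.91 ± 0.437 (SE, edgeR adjusted p = 2.8e-05). Its partner miR-308-3p fell by 3.57 on the log2 scale. miR-184-5p increased by 3.70 ± 0.166 (adjusted p = 9.9e-07), from 5351, 4998 and 4012 RPM to 56698, 67519 and 62623 RPM. miR-282-3p (log2 fold change 3.50 ± 0.322), miR-998-5p (3.25 ± 0.200), miR-33-3p (3.11 ± 0.114) and miR-988-5p (3.00 ± 0.175) followed. In none of these did a treated library overlap with a total library. miR-7-3p, the minor arm of a conserved miRNA of neurons and photoreceptors, increased by 2.42 ± 0.294, and miR-8-5p, from a hairpin known for growth control in the fat body, by 1.88 ± 0.432.

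The 7 arms that were lower after treatment were miR-9b-3p, miR-9c-3p, miR-79-5p, miR-34-3p, miR-277-5p, miR-970-5p and miR-279-5p. miR-9b-3p had 132, 133 and 108 RPM in total and 11.3, 5.96 and 4.25 RPM in periodate-treated libraries of dora lines, a log2 fold change of -4.24 ± 0.367 (edgeR adjusted p = 2.5e-05). miR-9c-3p fell from 270.4, 331 and 133 RPM to 15.1, 17.9 and 17.0 RPM (log2 fold change -3.85 ± 0.428), and miR-79-5p from 39.6, 44.7 and 31.2 RPM to 3.76, 2.98 and 2.13 RPM (-3.73 ± 0.420). The treated libraries held only 3, 4 and 2 reads of miR-9b-3p, 4, 12 and 8 of miR-9c-3p and 1, 2 and 1 of miR-79-5p. These 3 come from related hairpins of the miR-9 family in the same intron. miR-34-3p, whose hairpin is known for its role in ageing of the fly brain, fell by 2.70 ± 0.291 on the log2 scale, to 470.4, 234 and 262 RPM.

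The same question was put to tagged Ago2 directly, in hen1 lines, in which 3′ ends are not methylated. The paper does not say whether Ago2-IP and total libraries of these lines were prepared in the same batch. Of 31 minor arms, 22 were higher and 6 lower in Ago2-IP than in total small RNA, against 57.8% and 26.6% (84.4% in all) of the 109 miRNAs tested. The median log2 fold change was 2.10, against 1.30 for all miRNAs and -0.12 for the other arms (14 higher and 14 lower of 32). The level of all miRNAs depends on the scaling here. With TMM, 47 were higher and 42 lower in place of 63 and 29, and the overall median moved to 0.19. The minor arms then counted 17 higher and 6 lower with a median of 0.99. In hen1/dora lines, 24 of 31 minor arms were higher and 6 lower, against 51.4% and 28.8% (80.2% in all) of 111 miRNAs, with medians of 2.26 and 0.64. With TMM, 45 of all miRNAs were higher and 51 lower there (overall median -0.27), and 19 and 7 of the minor arms (median 1.35).

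miR-308-5p again had the largest increase, from 456, 309 and 414 RPM in total to 17589, 16809 and 15564 RPM in Ago2-IP libraries of hen1 lines (log2 fold change 5.41 ± 0.191). miR-7-3p rose from 44.1, 44.3 and 35.2 RPM to 1477, 1209 and 1763 RPM (5.17 ± 0.234), and miR-275-5p from 115, 105 and 103 RPM to 3048, 2498 and 4237 RPM (4.92 ± 0.246). The 2 last arms were among the rarer ones in total hen1 libraries and did not overlap between the library types. miR-184-5p rose from 2532, 2350 and 1724 RPM to 61051, 68413 and 60792 RPM (4.85 ± 0.178). At the other end, miR-9b-3p fell by 3.15 ± 0.262 on the log2 scale, miR-79-5p by 1.73 ± 0.279, miR-2279-3p by 1.39 ± 0.410, miR-9c-3p by 1.08 ± 0.346, miR-279-5p by 0.66 ± 0.248 and miR-34-3p by 0.47 ± 0.183. The Ago2-IP libraries held only 11, 11 and 5 reads of miR-9b-3p, 8, 5 and 5 of miR-79-5p and 2, 2 and 2 of miR-2279-3p.

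Periodate treatment in dora lines and Ago2-IP in hen1 lines share no library. Of the 18 minor arms that were higher after periodate treatment, 17 were also higher in Ago2-IP, which is 94.4% of the first and 77.3% of the second list. Of the 7 that were lower after treatment, 5 were also lower in Ago2-IP (71.4% and 83.3%): miR-9b-3p, miR-9c-3p, miR-79-5p, miR-34-3p and miR-279-5p. The other lower arms, miR-277-5p and miR-970-5p, did not pass in Ago2-IP of hen1 lines. In hen1/dora lines they went the other way and were higher in Ago2-IP (log2 fold changes 0.82 and 1.70, edgeR adjusted p = 0.0159 and 0.000563). The arm higher after periodate treatment but past no threshold in Ago2-IP was miR-995-5p, with a log2 ratio of mean RPM of 0.53 in hen1 lines. Higher in Ago2-IP of hen1 lines but past no threshold after periodate treatment were miR-11-5p, miR-12-3p, miR-283-3p, miR-317-5p and miR-999-5p. Overlaps over all miRNAs are not given, here or for Ago1-IP below, so that this agreement is not shown to be particular to minor arms.

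Ago1-IP was compared with total small RNA in dora lines in the same way, and library type and batch cannot be told apart there either. Of 31 minor arms, 25 were lower and 2 higher in Ago1-IP, against 36.1% lower and 29.6% higher (65.7% in all) among 108 miRNAs. The median log2 fold change was -2.48 for the minor arms, 0.14 for all miRNAs and 0.35 for the other arms (13 higher and 4 lower of 32). The largest decreases were those of miR-998-5p (-5.65 ± 0.244), miR-79-5p (-5.50 ± 0.309), miR-988-5p (-5.33 ± 0.305) and miR-965-5p (-3.86 ± 0.184). miR-998-5p had 571, 606 and 572 RPM in total and 13.6, 8.34 and 12.9 RPM in Ago1-IP libraries of dora lines. miR-79-5p had 0.703, 0.749 and 1.05 RPM in Ago1-IP (6, 8 and 9 reads), the lowest level of these 4 arms.

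The 2 arms higher in Ago1-IP were miR-9c-3p, with 751, 717 and 894 RPM against 270.4, 331 and 133 RPM in total (log2 fold change 1.69 ± 0.334, edgeR adjusted p = 0.00463), and miR-9b-3p, with 153, 162 and 198 RPM against 132, 133 and 108 RPM (0.46 ± 0.171, adjusted p = 0.0493). Both were also the arms with the largest decreases after periodate treatment, and both were lower in Ago2-IP. miR-190-3p (0.47, adjusted p = 0.0605), miR-8-5p (-0.73, adjusted p = 0.134), miR-2279-3p (0.53) and miR-307a-5p (0.14) did not pass the threshold in Ago1-IP. Of the 25 arms lower in Ago1-IP of dora lines, 19 were higher in Ago2-IP of hen1 lines (76% of the first and 86.4% of the second list). Another 3, miR-279-5p, miR-34-3p and miR-79-5p, were lower in both. miR-34-3p fell the least of them in Ago1-IP (by 0.41 ± 0.111 on the log2 scale), with 1725, 1457 and 1517 RPM against 2029, 2103 and 2097 RPM in total.

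**Figure D2:**
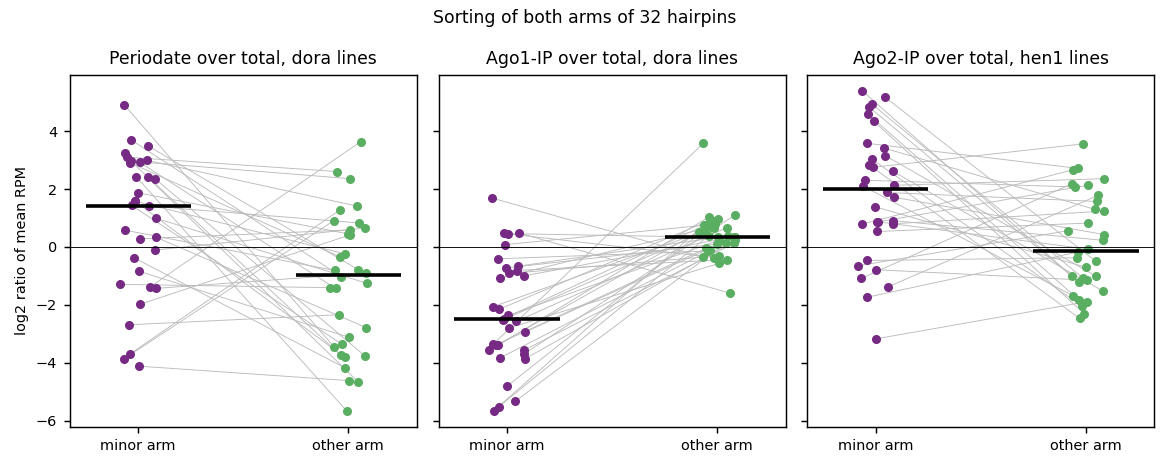
Log2 ratio of mean RPM in periodate-treated over total libraries of dora lines, in Ago1-IP over total libraries of dora lines, and in Ago2-IP over total libraries of hen1 lines (y axis), for the minor and the other arm of 32 hairpins. Lines join the arms of 1 hairpin and black bars are medians; most minor arms lie above 0 with periodate and Ago2-IP and below 0 with Ago1-IP, and miR-9b-3p and miR-9c-3p lie the other way.

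The ratio of minor to other arm was also fitted, with the reads of the other arm as an offset, so that a change of the whole hairpin or of the scaling drops out. In dora lines the ratio was higher after periodate treatment for 17 and lower for 5 of 31 hairpins, against 51.3% and 17.9% (69.2% in all) of the 39 hairpins tested. The largest increases were those of miR-308-5p (log2 8.76 ± 0.699), miR-7-3p (7.07 ± 0.386), miR-306-3p (6.50 ± 0.415) and miR-14-5p (6.13 ± 0.252). The ratio was lower for miR-79-5p (-5.01 ± 0.412, on 1, 2 and 1 treated reads) and miR-2279-3p (-4.81 ± 0.528, on 0, 2 and 3). The ratio was also lower for miR-9c-3p (-4.75 ± 0.410), miR-277-5p (-2.44 ± 0.329) and miR-11-5p (-0.79). In Ago1-IP of dora lines it was lower for 26 and higher for 3 of 32 hairpins, against 66.7% and 11.1% (77.8% in all) of 45. The 3 higher ones were miR-9c-3p (2.04 ± 0.288), miR-2279-3p (2.00 ± 0.281) and miR-190-3p (0.84 ± 0.223). In Ago2-IP of hen1 lines it was higher for 17 and lower for 8 of 32, against 50% and 22.5% (72.5% in all) of 40. The highest were miR-307a-5p (6.54 ± 0.235), miR-308-5p (6.41 ± 0.333), miR-306-3p (6.41 ± 0.253) and miR-184-5p (6.09 ± 0.227), and the lowest miR-9c-3p (-3.24 ± 0.276), miR-2279-3p (-3.17 ± 0.430), miR-12-3p (-1.86 ± 0.177) and miR-79-5p (-1.55 ± 0.291). Members make up most of the hairpins in these shares, here and for the arm ratios below, so that the shares are no separate group. Of hairpins outside the members, the ratio was higher for 3 and lower for 2 of 8 after periodate treatment. In Ago1-IP these counts were 2 and 4 of 13, and in Ago2-IP 3 and 1 of 8. The other arms of 9 Dora-sensitive hairpins (below) were higher in total small RNA of dora than of WT lines. Ratios in dora lines thus reflect sorting and genotype together. For these 9 hairpins, 5 ratios were higher and 2 lower after periodate treatment, against 2 and 6 in Ago2-IP of hen1 lines. The ratios of miR-12-3p and miR-190-3p were 1.45 and 1.83 in the first and -1.86 and -0.81 in the second.

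Among the abundant hairpins, miR-33 gave both arms after periodate treatment. miR-33-3p held 42.0%, 38.0% and 45.6% of its hairpin's reads in total WT libraries and 41.2%, 40.2% and 41.1% after periodate treatment. In dora lines its arm ratio differed by 0.51 ± 0.214 between the library types (edgeR adjusted p = 0.0578). In Ago1-IP libraries of WT lines it held 7.49%, 10.2% and 7.50%, and in Ago2-IP libraries of hen1 lines 29.2%, 28.9% and 27.6%, against 28.7%, 23.5% and 24.0% in total hen1 libraries. miR-282-3p held 39.3%, 45.1% and 40.3% in Ago1-IP, near its 49.4%, 44.3% and 53.4% in total WT libraries. Its share was above 94% in every periodate-treated WT and Ago2-IP library.

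Features of the duplex that the choice of members did not use are given as a description. Of the 32 minor arms, 15 began with C, 7 with G, 6 with A and 4 with U, whereas 25 of the 32 other arms began with U. The 4 minor arms that began with U (miR-2279-3p, miR-317-5p, miR-9b-3p and miR-9c-3p) had a median log2 ratio of mean RPM of -2.62 after periodate treatment of dora lines, 0.47 in Ago1-IP of dora lines and -1.23 in Ago2-IP of hen1 lines. Among them miR-317-5p went the other way with both Argonautes, at -2.51 in Ago1-IP and 3.03 in Ago2-IP. For those that began with C the medians were 1.58, -2.06 and 1.88, for G 2.36, -3.86 and 2.62, and for A 1.38, -3.24 and 2.12. RefSeq hairpins were also folded with RNAfold, and positions 9 and 10 of each minor arm were read as paired with the other side of the hairpin or not. The 18 minor arms with both positions paired had medians of 2.39, -2.50 and 2.79 in the 3 readouts, the 11 with 1 position paired -0.11, -0.998 and 0.91, and the 3 with neither (miR-1008-5p, miR-79-5p and miR-9c-3p) -3.70, -4.80 and -1.09. Of these last 3, miR-9c-3p was enriched in Ago1-IP, whereas miR-1008-5p and miR-79-5p were rare in every readout. miR-1008-5p had 0, 3 and 1 reads after periodate treatment of dora lines and 1, 0 and 1 in Ago2-IP of hen1 lines. miR-79-5p had 1, 2 and 1 and 8, 5 and 5 reads, and its value is the periodate median of -3.70. Hairpins of the miR-9 family share sequence and an intron and are not independent of each other.

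**Figure D3:**
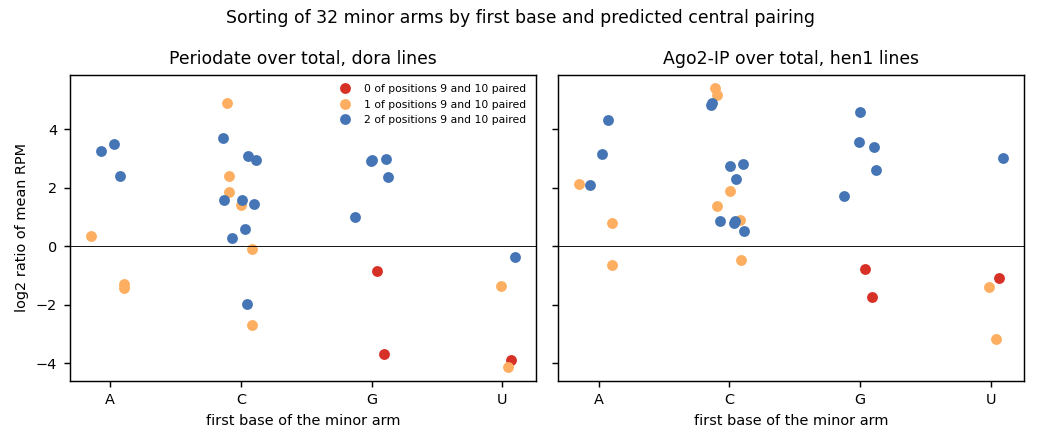
Log2 ratio of mean RPM of 32 minor arms (y axis) by the first base of the arm (x axis), in periodate-treated over total libraries of dora lines and Ago2-IP over total libraries of hen1 lines. Each point is a minor arm, coloured by how many of its positions 9 and 10 are paired in the folded hairpin. The 4 arms that begin with U lie lowest on the median (-2.62 and -1.23), but miR-317-5p among them lies at 3.03 in Ago2-IP.

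Loss of Dora was examined first in total small RNA, where the WT libraries that serve as controls also chose the members. After TMM normalization, 2 of 32 minor arms increased and 0 decreased upon loss of Dora, against 18% and 12% of the 100 miRNAs tested, those above 5 RPM on average in WT lines without outlying variation. The median log2 fold change was -0.04 for the minor arms and -0.03 for all miRNAs. For the other arms of these hairpins the median was 0.47, with 13 increased and 1 decreased of 31. Scaled to all miRNA reads instead, 13 of the 100 miRNAs increased and 15 decreased (overall median -0.18), and 0 minor arms increased and 1 decreased.

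The study called 10 miRNAs Dora-sensitive on these same total libraries, and 9 of their minor arms are members: miR-999-5p, miR-996-5p, miR-190-3p, miR-7-3p, miR-279-5p, miR-12-3p, miR-9b-3p, miR-277-5p and miR-9c-3p. Because the list was chosen here, the increase of their other arms is no independent evidence. Of the 9 minor arms, 0 passed the threshold in total small RNA. Their log2 fold changes ran from -0.46 to 0.88 (median 0.02), whereas those of the other arms ran from 1.69 to 4.02 (median 2.72). miR-7-3p had 65.6, 61.4 and 63.3 RPM in WT and 71.2, 69.0 and 37.8 RPM in dora lines, groups that overlapped (log2 fold change 0.02 ± 0.248), while miR-7-5p increased by 4.02 ± 0.178. The share of miR-7-3p in its hairpin dropped from 19.4%, 17.6% and 17.7% in WT to 1.88%, 1.57% and 0.856% in dora lines. The fitted arm ratio fell by 3.95 ± 0.341 on the log2 scale (edgeR adjusted p = 7.0e-07).

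The arm ratio fell for all 9 of these hairpins. After miR-7 the largest decreases were those of miR-12-3p (-3.21 ± 0.296), miR-999-5p (-3.20 ± 0.382) and miR-190-3p (-2.73 ± 0.277), and the smallest that of miR-277-5p (-1.27 ± 0.257). Over all minor arms, 11 ratios fell and 0 rose of 32, against 28.9% and 2.22% of 45 hairpins. The 2 outside the list were miR-34-3p (-0.92 ± 0.179) and miR-275-5p (-0.77 ± 0.239). For miR-275 the other arm miR-275-3p increased by 0.89 ± 0.207 (adjusted p = 0.016), while miR-275-5p had 153, 206 and 197 RPM in WT and 142, 204 and 185 RPM in dora lines.

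In Ago1-IP, libraries that took no part in the choice of members, the same hairpins were compared between dora and WT lines. Of the 8 Dora-sensitive minor arms tested (miR-999-5p was too rare), 2 increased and 2 decreased, with log2 fold changes from -0.49 to 0.90 (median 0.09), against 2.15 to 5.74 (median 3.42) for the other arms. miR-190-3p had 286, 293 and 291 RPM in WT and 213, 224 and 246 RPM in dora lines (-0.41 ± 0.109), and miR-190-5p rose from 241, 282 and 278 RPM to 7135, 7323 and 7144 RPM. The share of miR-190-3p in its hairpin went from 54.2%, 50.9% and 51.1% to 2.90%, 2.97% and 3.33%, so that the more frequent arm in Ago1 changed upon loss of Dora (arm ratio -5.11 ± 0.141). miR-9c-3p had 527, 605 and 619 RPM in WT and 751, 717 and 894 RPM in dora lines (0.37 ± 0.129, edgeR adjusted p = 0.0419). Its share dropped from 72.3%, 70.7% and 74.1% to 16.1%, 15.8% and 18.4% as miR-9c-5p rose from 202, 250.1 and 216 RPM to 3920, 3811 and 3953 RPM. miR-9b-3p decreased by 0.49 ± 0.136 and miR-12-3p increased by 0.90 ± 0.329 (adjusted p = 0.049). All 9 arm ratios of the list fell in Ago1-IP as well. Over all 31 hairpins tested the ratio fell for 13 and rose for 6, against 34.1% and 25% (59.1% in all) of 44. The increases were those of miR-995-5p (2.05 ± 0.373), miR-304-3p (0.98 ± 0.166), miR-308-5p (0.82 ± 0.136), miR-275-5p (0.72 ± 0.156), miR-8-5p (0.39) and miR-317-5p (0.30). The first of these rests on 8, 6 and 5 reads of miR-995-5p in WT and 38, 31 and 20 in dora lines. Its level was not tested in Ago1-IP.

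**Figure D4:**
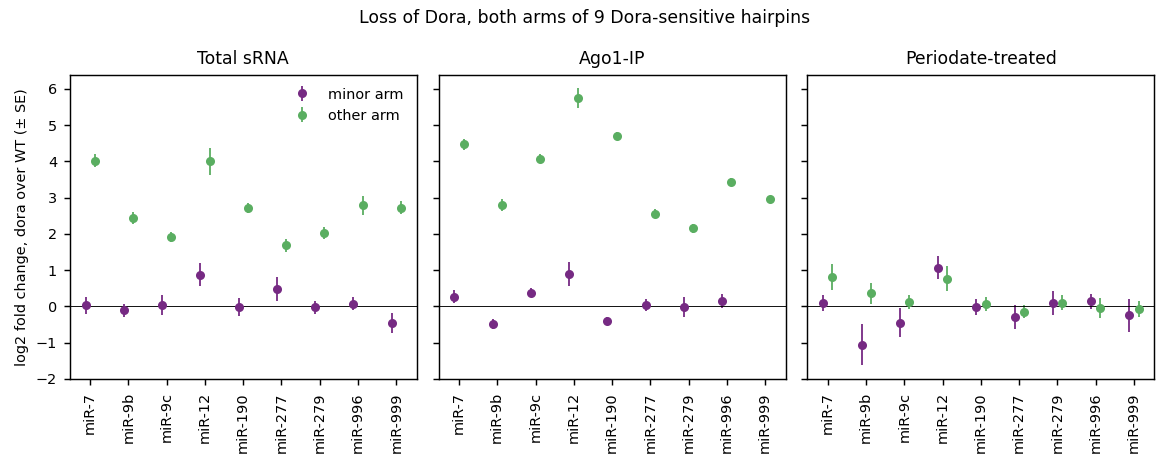
Log2 fold change of dora over WT lines (y axis, bars are the standard error of the edgeR fit) for the minor and the other arm of 9 Dora-sensitive hairpins in total small RNA, Ago1-IP and periodate-treated libraries, 3 lines per group. The other arms lie between 1.69 and 4.02 in total small RNA and between 2.15 and 5.74 in Ago1-IP, and the minor arms between -0.46 and 0.88 and between -0.49 and 0.90; miR-999-5p was not tested in Ago1-IP.

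Over all minor arms, 8 of 25 tested increased and 5 decreased in Ago1-IP upon loss of Dora, against 31.9% and 24.2% (56% in all) of 91 miRNAs. The largest increase was that of miR-275-5p, from 10.7, 13.0 and 11.1 RPM in WT to 31.7, 29.2 and 34.0 RPM in dora lines, with no overlap (log2 fold change 1.39 ± 0.155, edgeR adjusted p = 0.000194). In total small RNA the genotypes overlapped for miR-275-5p, as given above, while miR-275-3p had a log2 fold change of 0.67 in Ago1-IP. miR-308-5p rose from 28.2, 32.3 and 29.2 RPM to 55.7, 58.2 and 52.5 RPM (0.83 ± 0.132, adjusted p = 0.00122), still below 1% of its hairpin, while miR-308-3p had a log2 fold change of 0.02. The others that increased were miR-304-3p (1.32 ± 0.252), miR-283-3p (1.05 ± 0.272), miR-12-3p, miR-305-3p (0.43), miR-317-5p (0.41) and miR-9c-3p. Those that decreased were miR-2279-3p (-0.74 ± 0.198), miR-9b-3p, miR-965-5p (-0.43), miR-190-3p and miR-34-3p (-0.32). miR-965-5p, with 9.09, 9.86 and 9.64 RPM in WT and 7.73, 7.21 and 7.13 RPM in dora lines, did not pass the threshold when any library was left out. Without Ago1-IP WT line 3 the 13 calls became 4, without dora line 1, 2 or 3 they became 4, 3 or 8.

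After periodate treatment 0 of 28 minor arms tested changed upon loss of Dora, with 2 at an unadjusted p under 0.05 by edgeR and 0 by DESeq2 after adjustment, against 2.02% of 99 miRNAs. The median log2 fold change was -0.02 for the minor arms and -0.06 for all miRNAs. miR-33-3p had 93158, 93162 and 107524 RPM in WT and 78413, 84246 and 84849 RPM in dora lines, and miR-308-5p 14176, 17553 and 15918 RPM against 13587, 18022 and 19887 RPM. The calls stayed at 0 without the treated dora library rich in marker reads. In hen1 cells loss of Dora changed 0 of 30 minor arms in total small RNA (2 at an unadjusted p under 0.05, DESeq2 1, against 18.1% of 94 miRNAs) and 0 of 29 in Ago2-IP (2 at an unadjusted p under 0.05, DESeq2 0, against 2% of 100). In total hen1 libraries the other arms of the Dora-sensitive hairpins differed by 0.93 to 3.64 on the log2 scale, and their minor arms by -0.34 to 0.59. The largest of these was miR-9c-3p, with 88.9, 117 and 100.3 RPM in hen1 and 176, 177 and 125 RPM in hen1/dora lines (0.59 ± 0.206, adjusted p = 0.0752). In Ago2-IP the minor arms differed by -0.31 to 0.52 and the other arms by -0.17 to 1.49.

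The 2 minor arms that increased in total small RNA upon loss of Dora, miR-283-3p and miR-304-3p, come from a cluster of hairpins with miR-12 in the Gmap intron. miR-304-3p had 42.2, 43.5 and 21.4 RPM in WT and 60.4, 108 and 47.5 RPM in dora lines (log2 fold change 1.13 ± 0.357, edgeR adjusted p = 0.0453). miR-283-3p had 51.7, 37.6 and 31.9 RPM in WT and 73.7, 113 and 55.4 RPM in dora lines (1.11 ± 0.289, adjusted p = 0.0249). For miR-12-3p the values were 65.6, 48.2 and 30.9 RPM against 81.2, 111 and 52.9 RPM (0.88 ± 0.329, adjusted p = 0.0874), so that the third arm of the cluster overlapped between genotypes and did not pass. The second dora line was the highest for all 3, and without it or without WT line 3 the count of minor arms past the threshold was 0. The other arms differed among themselves: miR-12-5p, which is on the Dora-sensitive list, increased by 4.01, miR-283-5p by 1.12 ± 0.309 (adjusted p = 0.0317), and miR-304-5p stood at 0.60 (adjusted p = 0.166). In Ago1-IP, miR-304-3p and miR-283-3p increased as given above and miR-283-5p increased by 1.09 ± 0.279, while miR-304-5p was at 0.34 (adjusted p = 0.219). After periodate treatment the 3 minor arms had log2 fold changes of 1.06 ± 0.323 (miR-12-3p), 0.85 (miR-283-3p) and 0.70 (miR-304-3p), with adjusted p-values of 0.136, 0.385 and 0.416.

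In hen1 cells the same 3 arms did not follow. Between hen1 and hen1/dora lines the log2 fold changes were -0.28 for miR-12-3p, -0.14 for miR-283-3p and 0.09 for miR-304-3p, none past the threshold. The difference between these backgrounds was not tested. The 3 arms were high in hen1 lines already. miR-304-3p had 98.2, 62.7 and 95.5 RPM in hen1 and 79.1, 109 and 92.5 RPM in hen1/dora lines, miR-283-3p 91.3, 66.3 and 75.3 RPM and 64.8, 80.6 and 73.4 RPM, and miR-12-3p 128, 91.0 and 121 RPM and 80.0, 114 and 93.4 RPM. All values of an arm in hen1 and hen1/dora lines lay above its WT values, but these libraries were made in another batch than those of WT lines.

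**Figure D5:**
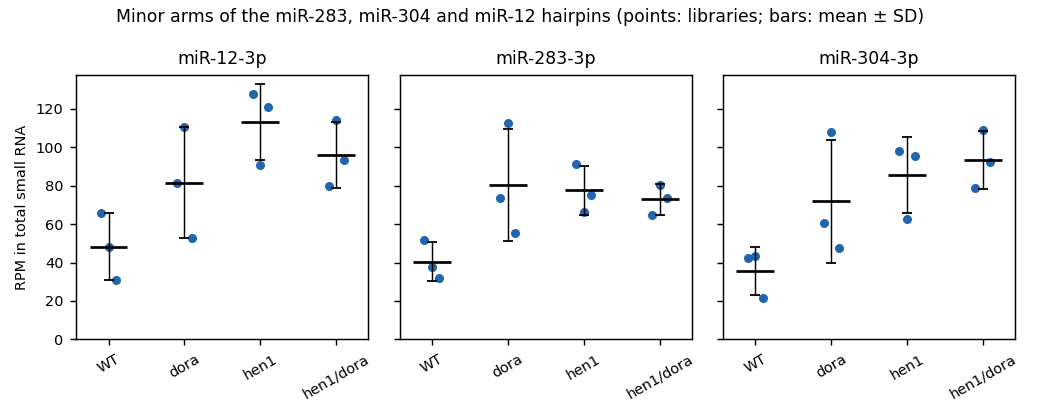
RPM of miR-12-3p, miR-283-3p and miR-304-3p in total small RNA (y axis) of WT, dora, hen1 and hen1/dora lines. Points are single libraries and bars the mean ± SD of 3 lines; WT lines are the lowest group for each arm, with 21.4 to 65.6 RPM.

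Loss of Hen1 was examined in total small RNA of hen1 against WT lines. The hen1 and the WT libraries were prepared in separate batches, so that loss of Hen1 and the batch cannot be told apart. The WT controls of this contrast, arm ratios included, are also the libraries that chose the members. Of 32 minor arms, 4 were higher and 5 lower in hen1 lines, against 19.4% and 18.4% of 98 miRNAs. Scaled to miRNA reads in place of TMM, 10 of all miRNAs were higher and 40 lower in place of 19 and 18 (overall median -0.41 in place of -0.08), and 3 minor arms were higher and 14 lower. Without hen1 line 3 the 9 calls became 5. The higher ones were miR-304-3p (1.59 ± 0.327), miR-12-3p (1.55 ± 0.316), miR-283-3p (1.26 ± 0.259) and miR-9b-3p (0.68 ± 0.156), the last of which was at 0.34 with an edgeR adjusted p of 0.125 when scaled to miRNA reads. In dora cells, hen1/dora against dora lines, these cluster arms had log2 fold changes of 0.37 (miR-12-3p), -0.02 (miR-283-3p) and 0.50 (miR-304-3p) and did not pass.

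The minor arms lower in hen1 lines were miR-9c-3p, miR-33-3p, miR-317-5p, miR-308-5p and miR-34-3p. miR-33-3p had 12914, 15552 and 12374 RPM in WT and 7886, 6704 and 6380 RPM in hen1 lines, with no overlap (-0.62 ± 0.129, adjusted p = 0.00845). miR-9c-3p had 274, 257 and 242 RPM in WT and 88.9, 117 and 100.3 RPM in hen1 lines (-1.01 ± 0.177, adjusted p = 0.00564). miR-308-5p had 699, 750.1 and 746 RPM against 456, 309 and 414 RPM (-0.56 ± 0.167, adjusted p = 0.0358). They thus included arms higher in Ago2-IP of hen1 lines (miR-33-3p, miR-308-5p, miR-317-5p) and arms lower in it (miR-9c-3p, miR-34-3p). Of the first 3, miR-317-5p did not pass the threshold after periodate treatment of dora lines (log2 fold change -0.38, edgeR adjusted p = 0.072). Loss of Hen1 in dora cells, hen1/dora against dora lines, likewise cannot be told apart from the batch. In this contrast 2 of 31 minor arms were lower and 0 higher, against 7.77% and 6.8% of 103 miRNAs. They were miR-184-5p, with 5351, 4998 and 4012 RPM in dora and 3007, 2729 and 1804 RPM in hen1/dora lines (-0.82 ± 0.202, adjusted p = 0.0238), and miR-317-5p (-0.66 ± 0.167, adjusted p = 0.0267). Scaled to miRNA reads, 6 of all miRNAs were higher and 12 lower in place of 7 and 8, and 0 minor arms passed without dora line 1 or 2 or hen1/dora line 1. miR-33-3p was at -0.35 (adjusted p = 0.132), with 9573, 9421 and 9750 RPM in dora and 7733, 6152 and 7320 RPM in hen1/dora lines.

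The arm ratio between hen1 and WT lines, which does not depend on the scaling, was lower for 13 and higher for 5 of 32 hairpins, against 33.3% and 19% of 42. The largest decreases were those of miR-279-5p (-1.37 ± 0.210), miR-184-5p (-1.29 ± 0.188), miR-33-3p (-1.08 ± 0.176) and miR-7-3p (-1.03 ± 0.180). The share of miR-33-3p in its hairpin went from 42.0%, 38.0% and 45.6% to 28.7%, 23.5% and 24.0%. The higher ratios were those of miR-965-5p (1.40 ± 0.240), miR-190-3p (0.77 ± 0.209), miR-12-3p (0.76 ± 0.198), miR-277-5p (0.61) and miR-282-3p (0.47). The periodate comparison in dora lines shares no library with this contrast. Of the 13 arms with a lower ratio, 8 were higher after periodate treatment (61.5% of the 13 and 44.4% of the 18 higher arms). Another 3 were lower (23.1% of the 13 and 42.9% of the 7 lower arms). Over all minor arms, 18 were higher and 7 lower of 31 tested. Of the 5 with a higher ratio, 3 were higher and 1 lower after periodate treatment. The median log2 change of the arm ratio was -0.25 for the 18 minor arms higher after periodate treatment and -0.22 for the 7 lower ones.

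Other hairpin groups had few members. The major arms of the K-box family share a seed that binds K-box sites in mRNAs of the Notch pathway. Among its hairpins with both arms under the same name, 2 of 3 minor arms were members, miR-11-5p and miR-308-5p. Further 5p arms of the family lacked a 3p entry of the same name and fell outside the rule, namely miR-2a-1-5p, miR-2a-2-5p, miR-2b-1-5p, miR-2b-2-5p and miR-13b-2-5p. Both members were lower in Ago1-IP of dora lines (median log2 fold change -2.18) and both were higher in Ago2-IP of hen1 lines (3.16), and 1 was higher after periodate treatment. Of 8 minor arms of mirtrons, hairpins that are made by splicing in place of Drosha, 1 was a member, miR-1008-5p. Its arm ratio was lower in Ago1-IP of dora lines (-5.87 ± 0.624), and it passed no other test.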

How the data were processed

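Read counts per miRNA in 5 deposited tables were used. The authors trimmed the reads (cutadapt among other tools), filtered them by base quality and matched their first 19 nt to a dictionary of miRNA and passenger sequences, merging names that could not be told apart, and deposited counts without normalization. Spike-in rows were left out of library sizes. Value columns left without a group numbered 0. Columns assigned by genotype without a replicate number were 7, namely 1 WT total column whose number matches no sample and 6 Ago2-IP columns that are named like the total hen1 and hen1/dora samples. Library pairs with identical values numbered 0.

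Members, lists and tests were chosen with earlier results of these data known. The minor arms of Dora-sensitive hairpins follow miRNAs that the study selected on its total WT and dora libraries. Named arms are those of that list, the 8 with the highest mean RPM in total WT libraries, per comparison up to 4 per direction with the largest change past the threshold and no overlap of the groups, the arms next to the read minimum, and those that outnumber their partner in every library of a group.

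Counts were fitted with edgeR 4.0.16 in R 4.3.3 (quasi-likelihood test), with TMM for loss of Dora and Hen1 and miRNA reads as library size for Argonaute against total libraries. miRNAs needed a mean above 5 RPM (in the control genotype, or over both groups for Argonaute comparisons) and, for loss of Dora and Hen1, a coefficient of variation within 1.5 interquartile ranges of the others. Arm ratios used the other arm's reads plus 0.5 as offset, with a mean of at least 5 minor-arm reads and at least 1 read of the other arm in every library. Standard errors were taken as the absolute log2 fold change over the square root of F. Adjusted p-values are Benjamini-Hochberg over all miRNAs or hairpins tested. Steps were tested on simulated data. Alternatives were DESeq2 1.42.0, other scalings, no filters, a replicate block and each library left out. RNAfold 2.7.2 folded the RefSeq hairpins, and sequences follow RefSeq Release 6, not the authors' dictionary.

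For loss of Dora after periodate treatment, same-numbered libraries had correlations of 0.072, 0.05 and 0.501. They also deviated together in every pair for loss of Hen1 in dora cells (correlations 0.302, 0.232 and 0.105). In that contrast the number as a block gave 3 minor arms past the threshold in place of 2. The p-values measure the spread between 3 clonal lines per group, which also differ by clone.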

Additional observations from a re-analysis of the deposited data

Results flagged for a closer look

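The change upon loss of Dora differed between Ago1-IP and periodate-treated libraries, by an interaction term in edgeR, for 12 of 24 minor arms tested. In this joint fit the log2 fold change of each was lower in Ago1-IP than after periodate treatment. In the separate fits of each library type it was not lower in Ago1-IP for miR-7-3p, miR-184-5p, miR-305-3p and miR-996-5p. The differences were -1.76 for miR-965-5p, -1.42 for miR-306-3p, -1.40 for miR-14-5p and -1.34 for miR-190-3p. They were -1.20 for miR-34-3p, -1.12 for miR-11-5p, -1.06 for miR-988-5p and -0.997 for miR-282-3p. For miR-996-5p, miR-184-5p, miR-305-3p and miR-7-3p they were -0.94, -0.93, -0.91 and -0.77. Among all 81 miRNAs tested, 54.3% differed, 12.3% with a higher and 42% with a lower change in Ago1-IP, and their median difference was -0.77 against -0.94 for the minor arms. The median of all miRNAs was 0.11 with miRNA reads as library size and 0.09 with TMM factors set within each library type. Under these scalings 3 minor arms had a higher and 1 a lower change in Ago1-IP, and 1 and 1, so that the direction of these differences rests on the scaling across library types.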

How the results depend on the processing

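Counts of minor arms past the threshold for Argonaute against total small RNA moved by less than 1.5 times under every alternative, and those for loss of Dora and Hen1 moved more. For loss of Dora in total small RNA (2) there was 1 with miRNA reads as library size, 5 with DESeq2, 4 without the filter on low values, 1 without the filter on variable miRNAs and 0 with the replicate block. In Ago1-IP (13) there were 7 without the filter on low values, and in total hen1 libraries (0) there was 1 with miRNA reads as library size, with DESeq2 and with the replicate block. For loss of Hen1 (9) there were 17 with miRNA reads as library size, 5 without the filter on low values and 16 with the replicate block, and for the arm ratio (18) 10 with the block. In dora cells (2) there were 4 with miRNA reads as library size, 5 with DESeq2, 1 without the filter on low values and 1 without that on variable miRNAs. For Ago1-IP against periodate-treated libraries (12) there were 4 with miRNA reads as library size, 2 with TMM factors within each library type, 24 without the filter on low values and 1 without that on variable miRNAs. The median log2 ratio of periodate-treated over total WT libraries (1.19) was 0.60 with TMM. The cause of these moves was not tested.

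With each library left out in turn, the counts ran from 0 to 3 (loss of Dora, total), 0 to 0 (periodate-treated), 3 to 10 (Ago1-IP), 0 to 1 (total hen1, 1 without hen1 line 2 or hen1/dora line 3), 0 to 2 (Ago2-IP, 2 without 1 of the hen1 libraries), 5 to 10 (loss of Hen1), 0 to 3 (loss of Hen1 in dora cells, 1 without hen1/dora line 2) and 4 to 14 (the difference between Ago1-IP and periodate, 4 and 5 without Ago1-IP WT lines 2 and 3). They ran from 24 to 25 for periodate in dora lines, 21 to 27 for Ago1-IP, 23 to 27 for Ago2-IP in hen1 and 26 to 29 in hen1/dora lines. For arm ratios they ran from 10 to 16 (loss of Dora, total), 16 to 20 (Ago1-IP), 12 to 16 (loss of Hen1), 22 to 26 (periodate), 27 to 30 (Ago1-IP against total) and 25 to 27 (Ago2-IP). The WT periodate median ran from 1.07 to 1.33.

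The correlation of same-numbered libraries was above 0 in every pair for loss of Hen1 in dora cells and for loss of Dora after periodate treatment. In the latter, pairs with different numbers reached 0.214, above the 0.072 and 0.05 of same-numbered pairs. In loss of Dora and of Hen1 in total small RNA the block rested on 2 pairs, since 1 WT library has no number. The block gave 9 in place of 13 for loss of Dora in Ago1-IP, 23 in place of 25 for periodate and 23 in place of 27 for Ago1-IP against total in dora lines, and 13 in place of 12 for Ago1-IP against periodate. The Ago2-IP columns are named like the total hen1 and hen1/dora samples and were assigned by genotype only, so their numbers were not used and the planned block was not run there.

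Some arms near 0 upon loss of Dora changed sign without passing the threshold. In total small RNA these were miR-7-3p (-0.11 with miRNA reads as library size, -0.0608 with the block, -0.13 to 0.33 with libraries left out), miR-9c-3p (-0.0797, -0.26, -0.17 to 0.42), miR-9b-3p (0.0114 with the block, -0.17 to 0.0252), miR-996-5p (-0.0798 with miRNA reads as library size, -0.0129 to 0.19), miR-190-3p (0.0248 with DESeq2, 0.0093 without the filter on low values, 0.18 with the block, -0.16 to 0.24) and miR-279-5p (0.0070 with DESeq2, 0.0015 without the filter on low values, -0.0803 to 0.0849). In Ago1-IP they were miR-279-5p (0.0439 with miRNA reads as library size, 0.0085 without the filter on variable miRNAs, -0.17 to 0.19) and miR-277-5p (-0.14 to 0.15). The periodate-treated and Ago2-IP libraries were the shallowest, and detection by depth was not tested.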
